A study of Mus musculus with 3 samples.

Results

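The genes described here are 10 mouse genes that encode feedback inhibitors of ERK signalling: the phosphatases Dusp4, Dusp5, Dusp6 and Dusp7, the Sprouty genes Spry1, Spry2 and Spry4, and the Spred genes Spred1, Spred2 and Spred3. They were taken by name from the array, through the transcript accession that each probe carries, and not by any measured value. All 10 were found among the 20660 genes that the array names. Each had 1 probe and each probe had 1 spot per array, so 30 spots carry the results below. The cells were J1 mouse embryonic stem cells (mESCs), a line of 129S4/SvJae origin from the inner cell mass, grown on gelatin without feeder cells in medium with knockout serum replacement and 1000 U/mL leukemia inhibitory factor (LIF). All 3 samples had received PD0325901 (PD), an inhibitor of the ERK-activating kinase MEK, at 1 µM for 24 h, and came from independent experiments per the methods of the study. Cells without PD were not analysed here. The values below are therefore the expression left in inhibited cells, with no comparison between conditions, and no p-value was computed.

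Growth factors such as FGF4 activate receptor tyrosine kinases, which signal through RAS, RAF and MEK to the kinase ERK. ERK in turn raises the transcription of its own inhibitors. DUSP proteins remove phosphate from ERK itself, whereas Sprouty and SPRED proteins act higher up, between the receptor and RAF. The transcripts of several of these genes follow the activity of the pathway and are widely used as readouts of ERK signalling. In mESCs this signalling drives cells out of the naive state.

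The arrays carried markers of the labelled cell type: 10 of 10 mESC markers were well above background on every array, all of them over the 75th percentile of the array. Of all named genes, 72.7% were well above background on every array. The percentile was taken over all 55681 non-control probes, of which 27235 were named. The share of all named genes above it was not computed. Of the markers of other cells, 6 of 10 fibroblast, 6 of 6 primitive endoderm, 3 of 7 mesoderm and trophoblast and 4 of 4 neural genes were detected, and 3 of these 19 lay above that percentile (Thy1, Eomes and Sox1, with levels of 0.24, 0.03 and 0.18 on the log2 scale). Eomes did so on replicate 2 only, with levels of -0.003, 0.22 and -0.12 on replicates 1 to 3. Col5a2, Lum, Postn, Mixl1, Cdx2 and Hand1 reached this limit on 0 arrays, Col3a1 on 1 and T on 2. The part of such cells in the results was not tested. Replicate 2 stood apart: 187 of its spots were marked non-uniform by the scanner software, against 25 on replicate 1 and 8 on replicate 3. No spot was saturated. The level of a gene below is the log2 of its processed signal minus the 75th percentile of the array, which was 551, 511 and 527 on replicates 1 to 3. The processed signal is the intensity of a spot after subtraction of the background. Signals of different probes also depend on the sequence of the probe, so the order of the genes by signal is not a ranking of their transcripts.

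A gene was called detected if its probe was well above background, by the flag of the scanner software, on each of the 3 arrays. This was so for 9 of the 10 genes. Over all named genes this share was 72.7% (15026 of 20660), and over all named probes it was 72.4%. Spred3 was the exception. The phosphatase genes were detected in 4 of 4 cases, with mean signals from 31.8 (Dusp5) to 2854 (Dusp6). The Sprouty genes were detected in 3 of 3 cases and the Spred genes in 2 of 3. Using a looser flag for detection left the count at 9. Leaving out any replicate or accepting a gene on fewer arrays did so by construction. The 9 genes carried the main flag on all 3 arrays and Spred3 on 0.

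**Figure D1:**
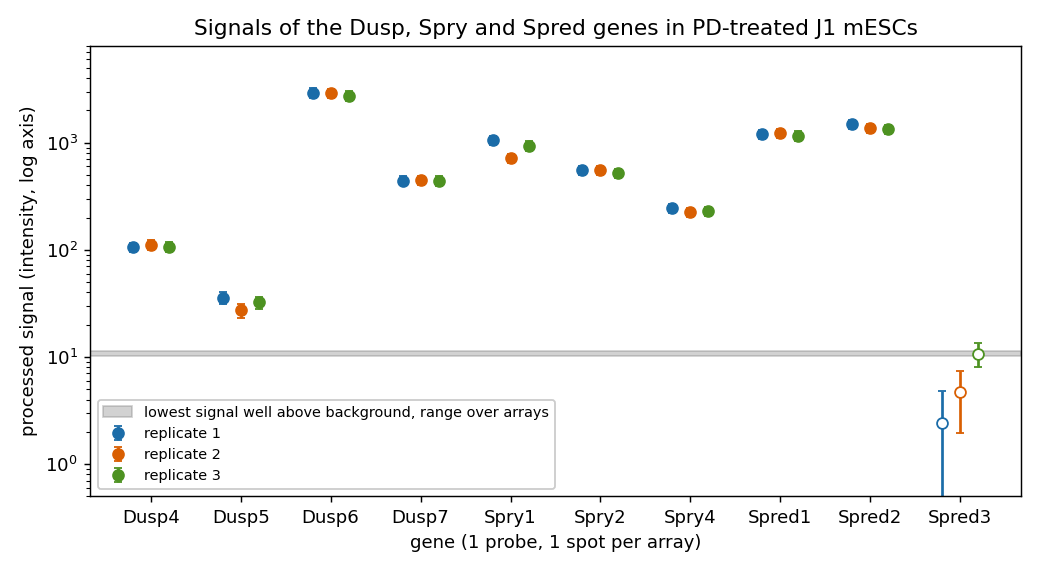
Processed signal (intensity, log axis) of the 10 genes on each of the 3 arrays, with bars for the error that the scanner software gives each spot. Filled points were well above background and open points were not. Spred3 is the only gene with open points, and the 9 others lie above the grey band of the lowest detected signals (10.1 to 11.4).

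Among the phosphatases that act on ERK in the cytoplasm, Dusp6 (MKP-3) gave the brightest spot of the 10 genes. Its signals were 2923, 2899 and 2740 on replicates 1 to 3, with scanner errors of 292, 290 and 274. The 3 values lay within 1 error of each other, and the raw spot was 140 to 152 times its local background. The level was 2.43 ± 0.07 (SD, n = 3), and 87.3% of the 55681 probes had a lower mean signal. Dusp7 (MKP-X), the other cytoplasmic phosphatase, had signals of 443, 448 and 441. These 3 values differed by less than their errors of 44.2 to 44.9. Its level was -0.25 ± 0.06, close to the 75th percentile of the array.

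Of the nuclear phosphatases, both were detected. Dusp4 (MKP-2), which acts on ERK and on JNK, had signals of 105, 112 and 106.8 with errors of 10.9, 11.5 and 11.0. Its raw spot was 6.05 to 6.89 times the local background, and 60.8% of probes had a lower mean signal. The level of Dusp4 was -2.29 ± 0.09. Dusp5, a nuclear phosphatase specific to ERK, had signals of 35.8, 27.2 and 32.3. Replicate 2 was the low one, but its distance from replicate 1 was only 1.04 times their combined error. The signals were 2.38 to 3.54 times the lowest signal that counted as detected on the same array, so Dusp5 was the detected member nearest to the limit. Its level was -4.07 ± 0.15, and 47.2% of probes had a lower mean signal.

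The sequence before the start of a gene is shown for 3 members, since it is where ERK-responsive transcription factors could bind: Dusp6 and Dusp5 as the brightest and the dimmest of the detected members, and Spred3 as the one not detected. The sequences come from RefSeq (GRCm38.p6), cover the 250 bases before the annotated start and run 5′ to 3′ on the strand of the gene. ERK is known to activate ETS factors, which bind around a GGAA core, and the partners of serum response factor (SRF), which binds the CArG box. In the window of Dusp6 (chr10:99262981-99263230, plus strand) the capitals mark a match on the reverse strand to CGGAAG, the ETS core with a C before it and a G after it. In that of Dusp5 (chr19:53528895-53529144, plus strand) they mark 2 adjacent CArG boxes. In that of Spred3 (chr7:29168648-29168897, minus strand) they mark the GC box GGGCGG, which binds SP1, with 3 matches.
Dusp6: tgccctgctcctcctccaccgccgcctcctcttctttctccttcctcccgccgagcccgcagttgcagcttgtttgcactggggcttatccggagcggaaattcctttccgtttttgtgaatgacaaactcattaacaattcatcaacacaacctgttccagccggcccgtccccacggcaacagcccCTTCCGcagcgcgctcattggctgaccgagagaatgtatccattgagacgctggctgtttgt
Dusp5: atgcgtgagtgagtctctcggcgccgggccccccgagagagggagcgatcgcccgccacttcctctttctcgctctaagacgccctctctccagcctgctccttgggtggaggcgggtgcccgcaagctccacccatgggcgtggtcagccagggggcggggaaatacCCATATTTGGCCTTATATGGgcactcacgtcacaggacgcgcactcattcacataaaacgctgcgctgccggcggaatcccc
Spred3: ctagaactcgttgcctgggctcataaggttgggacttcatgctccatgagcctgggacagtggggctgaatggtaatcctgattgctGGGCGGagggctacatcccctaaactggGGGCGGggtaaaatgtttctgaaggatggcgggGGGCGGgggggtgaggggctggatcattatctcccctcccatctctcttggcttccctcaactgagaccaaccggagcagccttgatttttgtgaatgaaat

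RefSeq windows were matched for 8 of the 10 genes, and both strands were searched. The CArG boxes of Dusp5 began 82 and 72 bases before the start. Such a box was present in 1.47% of the 32851 windows of all genes, and 6 of these windows held 2 or more. None of the 7 other members with a window held one. The ETS letters CGGAAG stood in the windows of Dusp6 (62 bases before the start), Spred1 and Spred2, against 13.6% of all windows, and GGGCGG in those of Dusp5, Spry1, Spred1, Spred2 and Spred3, against 32.7%. The AP-1 letters TGACTCA, the CRE letters TGACGTCA and the TATA letters TATAAA stood in 0 of the 8 windows, against 4.46%, 1.55% and 12.4% of all. A shared feature was the number of CG dinucleotides, which was above the median of all windows (6) in 7 of 8 members, from 12 in Spred2 to 34 in Dusp7. Spred3 had 6. These matches describe the letters of the windows, and binding was not measured.

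The Sprouty genes encode membrane-associated inhibitors that interfere with the activation of RAS and RAF. Spry1 had signals of 1052, 717 and 937 on replicates 1 to 3, with errors of 105, 71.7 and 93.7. Replicate 2 was low, and its distance from replicate 1 was 2.15 times the combined error, the only difference between arrays above 2 errors among the 9 detected members. Of all detected named probes, 7.25% (1426 of 19674, those with an unflagged spot on every array) differed that much between any 2 arrays. The level of Spry1 was 0.75 ± 0.23, and without replicate 2 it was 0.88 ± 0.07. On the array of replicate 2, 26 spots marked non-uniform lay within 10 rows and 10 columns of the Spry1 spot, against 0 or 1 for each other detected member. The spot itself carried no flag. The 218 detected neighbours of Spry1 in that window had a median SD of 0.23 log2 units over the arrays, and the neighbours of the other 8 members had medians from 0.07 to 0.09. The level on replicate 2 minus the mean of the other arrays was -0.40 log2 units for Spry1, whereas the median over its neighbours was -0.04. The part of this region of the array in the low value of Spry1 was not tested.

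**Figure D2:**
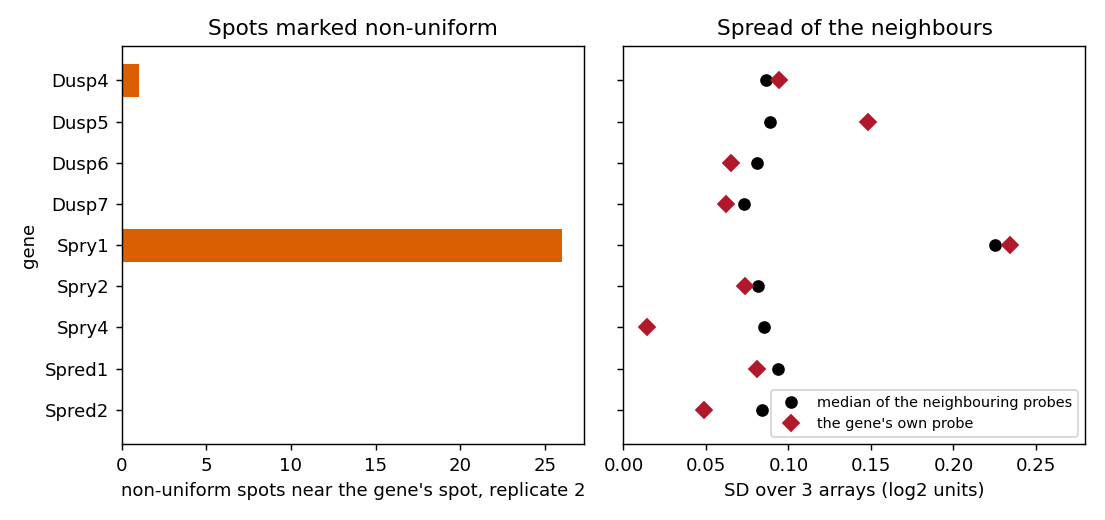
Left, number of spots marked non-uniform on replicate 2 within 10 rows and 10 columns of each gene's spot; right, SD over the 3 arrays (log2 units) of each gene's own probe (diamonds) and the median SD of its detected neighbours (circles). Spry1 stands out in both panels, with 26 marked spots and a neighbour median of 0.23.

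Spry2, the Sprouty gene with the probe nearest to the 75th percentile, had signals of 556, 556 and 519. The errors were 55.6, 55.6 and 52.0, so the arrays did not differ by more than the error of a spot. Its level was 0.04 ± 0.07, with 75.2% of probes lower. Spry4 had signals of 244, 224 and 229 and the smallest spread of the 9 genes, with a level of -1.19 ± 0.01. Of the 1000 detected named probes nearest to it in level, 2.1% had a smaller SD. With the median of each array as the zero point its SD was 0.04, and it was then no longer the smallest, since that of Dusp6 was 0.03.

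SPRED proteins carry an EVH1 domain and bring neurofibromin, a protein that switches off RAS, to the membrane. Spred1 had signals of 1198, 1232 and 1159, and Spred2 had signals of 1486, 1365 and 1335. All pairs of arrays lay within 1 combined error for both genes. Their levels were 1.18 ± 0.08 and 1.40 ± 0.05, with 81.3% and 82.4% of probes lower. Spred1 was highest on replicate 2 and Spred2 on replicate 1, so the arrays did not order these genes alike.

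Spred3 had signals of 2.39, 4.67 and 10.69, with errors of 2.40, 2.73 and 2.70. None of the 3 spots was well above background. The looser flag, for signals that are positive and significant, was set on replicates 2 and 3 and not on replicate 1. On replicate 3 the signal was slightly above the lowest detected signal of that array (10.3), but the raw spot of 30.0 stood only 1.82 times over its local background of 16.5. The values of replicates 1 and 3 were 2.37 combined errors apart. The level of Spred3 was -6.75 ± 1.11, and with no spot well above background it gives only a bound. After normexp background correction, which here added a fixed offset of 50 to every signal, the SD of Spred3 was 0.16.

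The spread of the members over the arrays was next compared with that of other probes. The SD of the 9 detected members ran from 0.01 (Spry4) to 0.23 (Spry1) log2 units, with a median of 0.073 against 0.077 over all 19674 detected named probes. None of the 9 ranged over more than 1 log2 unit, as did 1.13% of all detected named probes. Set against the 1000 probes nearest in level, the SD of Dusp4, Dusp5, Dusp7, Spry4 and Spred2 lay below the median and that of Dusp6, Spry1, Spry2 and Spred1 above it. Spry1 was the farthest above the median, with a smaller SD in 95% of its like-level probes. Spry4 was the farthest below the median, with a smaller SD in 2.1%. Without replicate 2 the median SD of the members was 0.041 and that of all detected named probes 0.053.

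**Figure D3:**
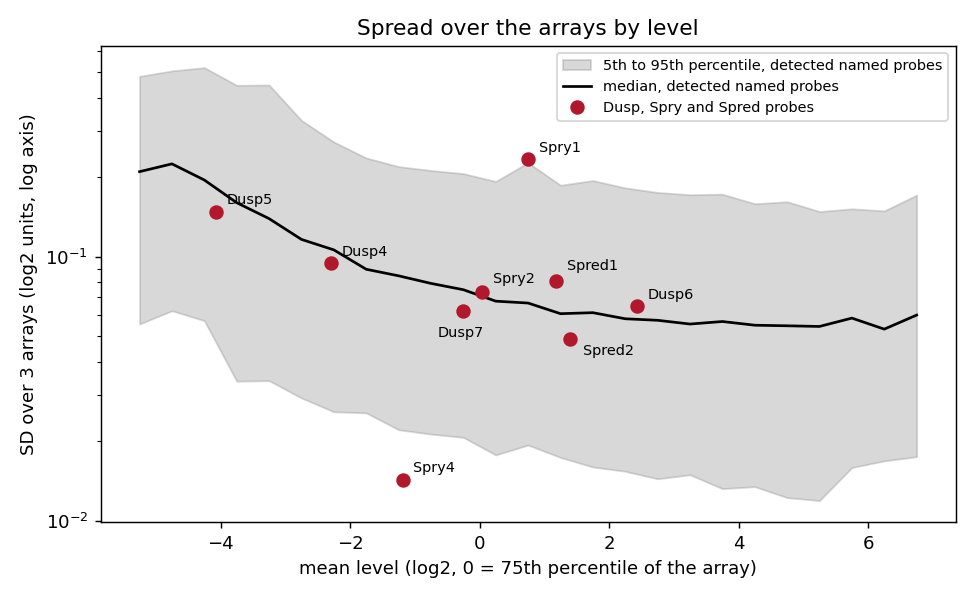
SD over the 3 arrays (log2 units, log axis) against mean level (log2, 0 is the 75th percentile of the array) for the 9 detected genes (points), with the median (line) and the 5th to 95th percentile (band) of all detected named probes in steps of level. Most members lie near the line, Spry1 (0.23) at the upper edge of the band and Spry4 (0.01) below it.

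The arrays did not rank the members in 1 direction. Replicate 2 was highest for 5 of the 9 genes (Dusp4, Dusp6, Dusp7, Spry2 and Spred1) and lowest for 2 (Dusp5 and Spry1). Over all detected named probes it was highest in 44.8% and lowest in 29.2%. Replicate 1 was highest for the remaining 4 genes. In 7 of the 9 genes every pair of arrays was within 1 combined error, as in 69.1% of all detected named probes. The scanner error was 10% of the signal or slightly more for all detected members but Dusp5, in which it was 12.4% to 14.9%.

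**Figure D4:**
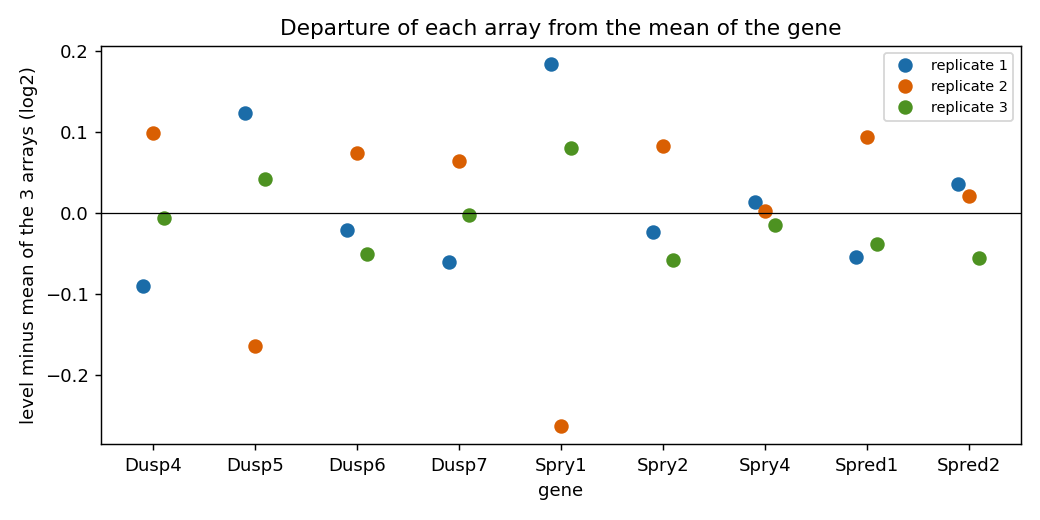
Level of each of the 9 detected genes on each array minus the mean of the 3 arrays (log2). Replicate 2 lies above the others in 5 genes and below them in Dusp5 and Spry1, and the range is under 0.2 log2 units except in Dusp5 (0.29) and Spry1 (0.45).

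Other genes of the pathway were then counted in 4 lists, by the probe with the highest mean level of each gene and against the share of 72.7% over all genes. Of the other MAP kinase phosphatases, 6 of 6 were detected. The largest SDs among them were those of Dusp8 (level -3.72 ± 0.26) and Dusp10 (-4.28 ± 0.13), which act mainly on JNK and p38. Of the other negative regulators of receptor and RAS signalling, 9 of 10 were detected, and Spry3, the remaining Sprouty gene, was below the detection limit throughout, with signals of 2.49, 2.86 and 2.50. Among the 9 detected genes, Cbl (0.01 ± 0.10) and Rasa2 (-0.74 ± 0.10), a ubiquitin ligase and a RAS inhibitor, had the largest SDs. The cascade from FGF4 to ERK was detected in 21 of 21 genes, 18 of them above the 75th percentile. The share of all named genes above that percentile was not computed, so this count has no share beside it. The scaffold gene Ksr1 had a level of -2.82 ± 0.24 there.

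Of 15 other genes known to rise with ERK activity, 14 were detected. Fosl1, which encodes a subunit of AP-1, was well above background on 2 of 3 arrays, with signals of 17.6, 15.9 and 11.2. Ier3, an immediate early gene, had signals of 1072, 654 and 1222 on replicates 1 to 3. Its SD of 0.44 log2 units was the largest of the 14 detected genes. Etv4, an ETS factor, had the next largest SD among the detected genes, with a level of 3.49 ± 0.17. None of the detected genes of the 4 lists ranged over more than 1 log2 unit. The list medians of the SD were 0.066, 0.068, 0.073 and 0.081 log2 units in the order above, beside 0.073 for the feedback inhibitors.

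**Figure D5:**
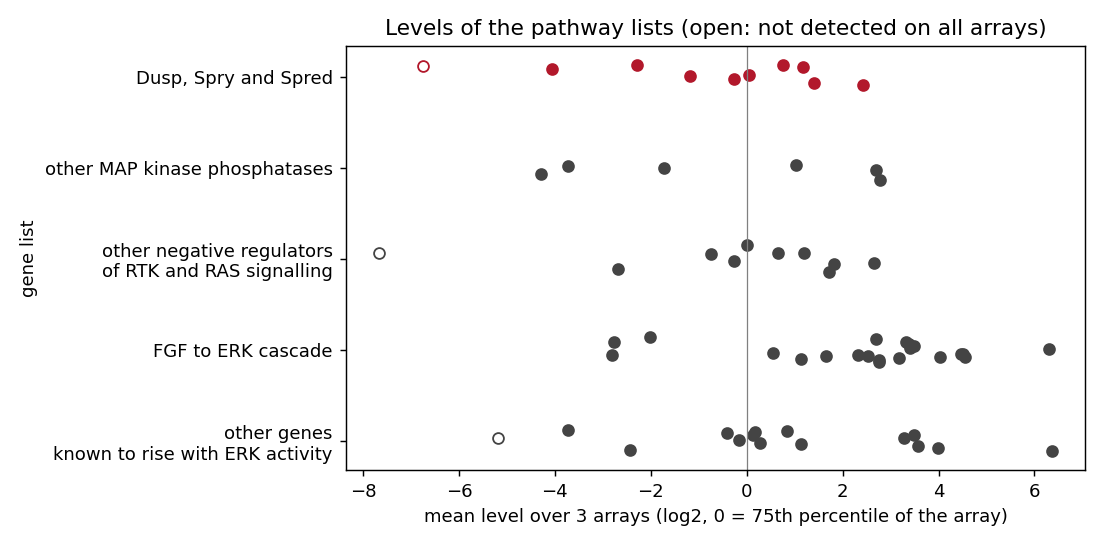
Mean level over the 3 arrays (log2, 0 is the 75th percentile of the array) of the genes of 5 lists, 1 point per gene, with vertical scatter for legibility and open points for genes not detected on all arrays. The detected feedback inhibitors span -4.07 to 2.43, and the open points are Spred3, Spry3 and Fosl1; levels of different probes are not ranks of transcripts.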

How the data were processed

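RNA of 3 PD-treated cultures was labelled with Cy3 and hybridised to 1 Agilent array each. Per the file headers, the authors extracted the spot intensities with Agilent Feature Extraction 10.7.3.1 on a grid of build mm9. The software subtracted the background, removed trends within the array, set flags and gave each signal an error. The flags are 0 or 1 and were used as given. The authors also deposited a table of log2 values per probe, whose normalization is not given in the sources used here and which served as an alternative.

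Probes (55681 without controls, 27235 of them named) took gene symbols from the RefSeq table of GRCm38.p6 through unversioned accessions. A level is the mean log2 processed signal of the unflagged spots of a probe minus the 75th percentile of the array. A probe was detected if well above background on all 3 arrays. A difference between arrays was divided by the root of the summed squared errors, after scaling by that percentile, a rule tested on simulated data. The alternatives were quantile normalization, other zero points, normexp correction (limma 3.58.1, offset 50), the deposited table, other rules for detection, outlier spots kept and leaving out each replicate. The members and lists were chosen with earlier results of these data known. Named are all 10 members and, per pathway list, genes not detected and, among those detected, the 2 with the largest SD, of which 1 is not reported here. No gene was named for a pattern like that of a member, since 3 replicates of 1 group hold no pattern over conditions. The number of arrays limits the precision. The files hold no replicate spots for the members, so no test between arrays was made. Python 3.11.15 was used.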

Additional observations from a re-analysis of the deposited data

How the results depend on the processing

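The 9 detected members stayed at 9 under every alternative tried for detection, and the counts of the 4 pathway lists moved by at most 1 gene. For the members, only the looser flag could have changed the count. Each member had 1 probe, which carried the main flag either on all 3 arrays or on 0. The median SD of the detected members was 0.073. It was 0.041 to 0.088 when 1 replicate was left out, the lowest value without replicate 2, and between 0.052 and 0.079 under the other alternatives. The count of members that ranged over more than 1 log2 unit was 0, and 1 when Spred3, which was not detected, was included. With quantile normalization, the deposited table or outlier spots kept, the mean level of all 10 genes moved by less than its SD. The same held with any replicate left out, but by construction. With 3 arrays, leaving out 1 cannot move a mean by as much as the SD. The median or the percentile over detected probes as the zero point moved all 10, by construction, and normexp moved 7. Replicate 2 was low for Spry1 under all 6 alternatives for scaling and background, but for Dusp5 not after normexp. A test of spots within a probe could not be run, since no member had 10 spots. No paired analysis was possible because the 3 samples form 1 group.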

Other observations

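These genes of the pathway lists were singled out after their values had been seen. Dusp9, a phosphatase that is prominent in mESCs, had signals of 3469, 3484 and 3292 and a level of 2.69 ± 0.07. Il17rd, which encodes the FGF inhibitor Sef, had a level of 2.65 ± 0.06. The ETS factor gene Etv5 had a level of 6.36 ± 0.05, and the immediate early genes Egr1 and Fos had levels of -3.72 ± 0.11 and -2.43 ± 0.04. All 5 were well above background on the 3 arrays. No level in cells without PD was analysed here, so these values give no direction.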
